A study of Mus musculus with 18 samples.

Results

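A group of 10 long noncoding RNA genes were followed in mouse embryonic stem cells (ESCs) and in the epiblast-like cells (EpiLCs) made from them, with and without Δ9-THC, the main psychoactive compound of cannabis. The genes were taken by name: the nuclear RNAs Malat1, Neat1 and Kcnq1ot1, and the small nucleolar RNA (snoRNA) host genes Gas5, Snhg1, Snhg3, Snhg5, Snhg6, Snhg8 and Snhg12. Of the 10 genes, 9 had a row in the table of 13104 genes measured in ESCs and in the table of 13717 genes measured in EpiLCs. Snhg3 had no row in either table and was not analysed here. The RNA came from 12 cultures, 3 for each cell type and exposure, so that the groups were vehicle-treated ESCs, ESCs given THC at 100 nM, vehicle-treated EpiLCs, and EpiLCs given THC at 100 nM. The vehicle was ethanol, added in the same amount to the exposed cultures, and EpiLCs of the exposed group came from exposed ESCs and stayed under exposure. All cells carried the Blimp1::mVenus and Stella::ECFP reporters of germline genes, so the cultures share the genetic background of a reporter line and give no spread between lines or embryos. ESCs were grown in 2i and LIF, which hold the naive state, and EpiLCs in activin A and bFGF, which move cells to a formative state.

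Malat1 is an abundant, unspliced transcript of the nuclear speckles, bodies that store splicing factors, and Neat1 is the scaffold of the paraspeckles next to them. Kcnq1ot1 is an imprinted, unspliced transcript made from the paternal allele inside the Kcnq1 gene, and it is known for silencing neighbouring genes on the same chromosome. Host genes of the Snhg family and Gas5 carry snoRNAs in their introns; the snoRNAs guide modification of ribosomal and other RNAs, whereas the spliced host RNA is a by-product in many cases and is often removed by nonsense-mediated decay. Host genes of this kind commonly start with a pyrimidine tract, as messenger RNAs of ribosomal proteins do.

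Malat1 lay at chr19:5795690-5802672 on the minus strand of GRCm38 as a single exon of 6983 bases, and Neat1 at chr19:5824708-5845478 on the same strand as a single exon of 20771 bases. Kcnq1ot1 lay at chr7:143203458-143296549, minus strand, as a single exon of 93092 bases, of which 1.2% was shared with exons of other genes, Kcnq1 among them. Since reads were counted without strand, unspliced RNA of Kcnq1 inside this stretch cannot be told apart from Kcnq1ot1. Kcnq1 itself had no row in either table, and its part in these counts was not tested. Gas5 (chr1:161034422-161038539, plus strand) held 9 snoRNA loci and Snhg1 (chr19:8723475-8726443, plus strand) held 8. Snhg12 (chr4:132308623-132311024, plus strand) held 4, Snhg5 (chr9:88521050-88522929, minus strand) held 2, and Snhg6 (chr1:9941959-9944118, minus strand) and Snhg8 (chr3:123507552-123508404, minus strand) held 1 each. None of these snoRNAs had a row of its own in either table, so the values that follow are those of the host RNAs. Between 8.3% and 20.9% of the exonic bases of the 6 host genes were shared with another annotated gene, for 5 of them with their own snoRNAs, where reads could not be given to a single gene. Both kinds of snoRNA are shown as examples of what the hosts carry: Snord50a of Snhg5 with its C box and D box in capitals, and Snora24 of Snhg8 with its ACA box in capitals, both from the GENCODE transcripts and written with T for U.
Snord50a: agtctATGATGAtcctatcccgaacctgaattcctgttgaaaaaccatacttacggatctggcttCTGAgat
Snora24: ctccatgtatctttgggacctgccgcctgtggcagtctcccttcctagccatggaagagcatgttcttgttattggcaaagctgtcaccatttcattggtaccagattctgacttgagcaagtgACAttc

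The starts of the genes differed in sequence. The windows of 60 bases shown here reach from 30 bases before the RefSeq start to 30 bases from it on (GRCm38.p6), on the transcribed strand, and capitals mark a run of at least 5 pyrimidines that opens with C within 5 bases of the start.
Gas5, chr1:161035136-161035195: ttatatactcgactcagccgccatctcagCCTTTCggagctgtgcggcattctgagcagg
Snhg8, chr3:123508307-123508366: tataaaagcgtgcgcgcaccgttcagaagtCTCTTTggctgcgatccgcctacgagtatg
Snhg12, chr4:132308648-132308707: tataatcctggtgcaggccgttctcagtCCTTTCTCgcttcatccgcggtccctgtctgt
Snhg1, chr19:8723457-8723516: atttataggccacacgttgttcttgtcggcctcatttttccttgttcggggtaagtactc
Snhg5, chr9:88522868-88522927: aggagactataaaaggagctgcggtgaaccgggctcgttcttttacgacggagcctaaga
Malat1, chr19:5802643-5802702: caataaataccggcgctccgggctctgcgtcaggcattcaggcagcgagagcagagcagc
Kcnq1ot1, chr7:143296518-143296577: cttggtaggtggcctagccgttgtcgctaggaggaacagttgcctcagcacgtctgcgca
Gas5, Snhg8 and Snhg12 held such a tract. The Snhg5 window holds the run ctttt further downstream, outside the limit of 5 bases. The Snhg1 window holds the run tttttcctt, which opens within that limit but with T and so was not marked. Gas5 has a second RefSeq start upstream, at which no tract was found, and Neat1 and Snhg6 had no window. Of 27025 genes with a RefSeq start, 21.2% held the tract. So did 7 of 23 protein-coding snoRNA host genes (30.4%) and 27 of 56 ribosomal protein genes (48.2%). A match describes these letters and does not show a functional site.

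Libraries were made from poly(A) RNA, which bears on Malat1, since its mature 3′ end is formed by cleavage and carries no poly(A) tail. Its longest run of A was 12 bases, starting at base 6674 of 6983, and is shown in capitals with 20 bases on each side (chr19:5795968-5796019, minus strand).
Malat1: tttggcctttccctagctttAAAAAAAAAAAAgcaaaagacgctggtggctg
Whether this run brought the RNA into the libraries was not tested. The longest run of A in Kcnq1ot1 was 41 bases and in Neat1 7 bases.

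The 12 libraries held 23427551 to 32096698 counts. Naive markers summed to 4443 to 4747 CPM (counts scaled to a common library size) in vehicle-treated ESCs and to 315 to 342 CPM in vehicle-treated EpiLCs, and EpiLC markers to 159 to 172 CPM and 1739 to 2076 CPM, as the labels say. In ESCs given THC the sums were 4325 to 4623 CPM for the naive markers and 152 to 165 CPM for the EpiLC markers, which overlapped with vehicle. Of 6 EpiLC markers with a row in ESCs, 3 had a log2 fold change above 0 with THC and 3 below 0. Pou3f1 (-0.96 on the log2 scale, edgeR adjusted p = 0.0265) and Sox3 (-0.40, adjusted p = 0.0498) were called lower. With the replicate number as a block their edgeR adjusted p-values were 0.414 and 0.482, and with GC and length offsets 0.0808 and 0.565. Otx2 was at 0.22 with no overlap between the groups, and was not called (edgeR adjusted p = 0.122). The part of these markers in the results was not tested. Of 12 markers of other cell types, 6 had a row in ESCs and 8 in EpiLCs, and Gata6, Sox17 and Acta2 had none in either. They summed to 24.4 to 26.7 CPM with vehicle and 28.1 to 30.8 CPM with THC in ESCs, and to 35.7 to 37.4 and 37.6 to 39.8 CPM in EpiLCs; no single marker of this list was called, and the part of these low levels in the results was not tested. Libraries with the same replicate number moved in opposite directions around their group means, with a correlation over genes of -0.99 to -0.98 in both cell types, so the 6 libraries of a table are not independent of each other, while the p-values below treat them as if they were. A second trend ran with base composition: in the ESC comparison the median log2 fold change was 0.099 in the lowest of 3 equal bins of exonic GC content and -0.092 in the highest. All 9 genes had an exonic GC content of 40.3% to 47.5%, below the median of 49.3%, and 6 of them fell in the lowest bin. The part of either trend in the results was not tested. In ESCs, fits with the replicate number as a block and fits with GC and length offsets are given with the results.

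Gas5 was the most abundant of the 9 genes per length in vehicle-treated ESCs, at 40.5 ± 1.69 CPM per kilobase of exons (SD, n = 3). Snhg5 at 29.8 ± 3.74, Snhg8 at 28.7 ± 2.93 and Snhg6 at 27.5 ± 3.11 CPM per kilobase followed, and the libraries of neighbours in this order overlapped. Malat1 at 23.4 ± 0.522 and Snhg1 at 21.4 ± 1.61 CPM per kilobase also overlapped. Snhg12 stood apart at 7.72 ± 0.252 CPM per kilobase. Neat1 and Kcnq1ot1, the longest transcripts, were lowest at 0.743 ± 0.0821 and 0.0847 ± 0.0128 CPM per kilobase. With the length of the longest transcript in place of all exons, Snhg6 passed Snhg8, and the other 7 genes kept their places. Both lengths can take in introns of the spliced host RNAs. The annotated exons of Snhg1, Snhg8 and Snhg12 together cover the whole gene body, at 2969, 853 and 2402 bases. Levels per length of the shorter spliced RNAs were not estimated, so the place of host genes against Malat1 rests on these lengths in both cell types. Neat1 and Kcnq1ot1 were divided by a single annotated exon of 20771 and 93092 bases. Levels over shorter forms of these 2 RNAs were not estimated, so their places also rest on the lengths used in both cell types.

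In EpiLCs the order changed at the top. Malat1 led in vehicle-treated EpiLCs with 90.9 ± 27.4 CPM per kilobase, apart from Gas5 at 39.4 ± 10.1. From Gas5 down to Snhg6 at 28.1 ± 8.02 CPM per kilobase, each gene overlapped with the next, and Snhg12 followed at 12.1 ± 2.72. Kcnq1ot1 reached 0.877 ± 0.365 CPM per kilobase and overlapped with Neat1 at 0.846 ± 0.183.

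**Figure D1:**
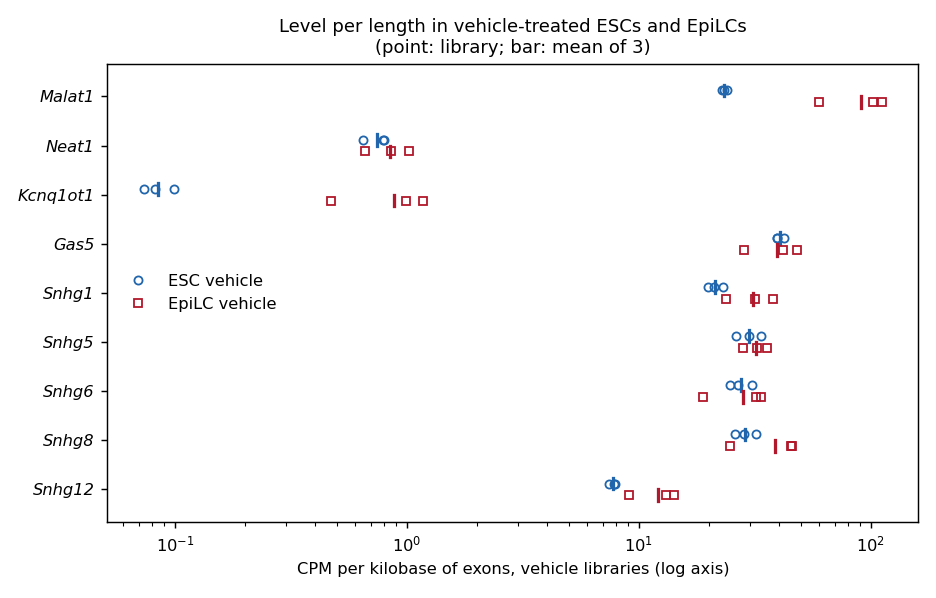
Level of each gene in vehicle-treated ESCs (blue circles) and EpiLCs (red squares), in CPM per kilobase of exons on a log axis, with a point for each of 3 libraries and a bar at their mean. Malat1 and Kcnq1ot1 are shifted to the right in EpiLCs, while the points of Gas5, Neat1, Snhg5, Snhg6 and Snhg8 overlap between the cell types.

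Malat1 and Kcnq1ot1 were the genes that separated the cell types. Malat1 measured 163, 160 and 167 CPM in the 3 vehicle-treated ESC libraries and 711, 417 and 777 CPM in the 3 vehicle-treated EpiLC libraries. By mean difference with vehicle, Malat1 was at percentile 96.8 of the genes in both tables. The mean difference was 1.91 on the log2 scale, with an SD of 0.49 from the spread in both groups. With THC it was 1.48, from 217, 221 and 212 CPM in ESCs to 553, 803 and 497 CPM in EpiLCs.

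Kcnq1ot1 measured 9.20, 6.87 and 7.60 CPM in vehicle-treated ESCs and 109, 43.7 and 92.1 CPM in vehicle-treated EpiLCs. The difference was 3.27 on the log2 scale (SD 0.73), at percentile 99.4 of the 12410 genes in both tables, and with THC it was 2.49. The 2 of the 9 genes with all 6 EpiLC libraries above all 6 ESC libraries are a smaller share than the 29.6% of all genes in both tables. The tables were adjusted separately by the authors, so these differences were not tested, and a change in RNA per cell cannot be told apart from a change in the cells that make it.

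Among the host genes, Snhg12 and Snhg1 had all 3 vehicle-treated EpiLC libraries above the 3 vehicle-treated ESC libraries, by 0.62 (SD 0.35) and 0.52 (SD 0.36) on the log2 scale. With THC their libraries overlapped between the cell types, and the differences were 0.075 and 0.32. Gas5, Snhg5, Snhg6, Snhg8 and Neat1 overlapped with either exposure, with differences from -0.26 to 0.37. The median difference over all genes was -0.0017 in vehicle libraries.

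In ESCs with THC against vehicle, all 9 genes had a positive log2 fold change, from 0.10 to 0.52 with a median of 0.24, where 51.1% of all genes were above 0 and the median of all genes was 0.0041. By the quasi-likelihood test of edgeR, with p-values adjusted by Benjamini-Hochberg over all 13104 genes and a limit of 0.05, 2 of the 9 genes rose, Malat1 and Snhg12, against 3.37% of all genes called higher and 6.91% called in either direction. The 3 THC libraries lay above the 3 vehicle libraries for Malat1, Kcnq1ot1, Snhg1 and Snhg12, 4 of the 9 genes, against 14.2% of all genes.

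Malat1 gave the clearest difference. Its level was 163, 160 and 167 CPM with vehicle and 217, 221 and 212 CPM with THC, so that the groups were separated by a gap larger than the spread within either. The log2 fold change was 0.42 (SE 0.029, n = 3 against 3), or 1.34-fold, with an edgeR p of 2.75e-06 and an adjusted p of 0.0120. This was the third smallest p among all genes tested. With the replicate number as a block the value was 0.42 and the adjusted p 0.0404, and DESeq2 gave an adjusted p of 1.49e-15. With offsets for GC content and length, edgeR gave 0.34 with an adjusted p of 0.0707, and with each of the 6 libraries left out in turn the value stayed between 0.41 and 0.44 while the adjusted p was 0.0721 to 0.110.

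Snhg12 was the other gene that passed. It measured 18.98, 17.9 and 18.8 CPM with vehicle and 21.0, 22.3 and 21.2 CPM with THC, without overlap. The log2 fold change was 0.23 (SE 0.046) with an edgeR adjusted p of 0.0409. The call was lost with the block (0.23, adjusted p = 0.434), with the GC and length offsets (0.19, adjusted p = 0.134), by DESeq2 (0.23, adjusted p = 0.100) and with each of the 6 libraries left out in turn (0.20 to 0.25, adjusted p = 0.0745 to 0.145).

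Kcnq1ot1 had the largest value of the 9 genes and did not pass. Its levels were 9.20, 6.87 and 7.60 CPM with vehicle and 9.48, 12.5 and 11.6 CPM with THC, and the lowest THC library was close to the highest vehicle library. The log2 fold change was 0.52 (SE 0.14) with an edgeR adjusted p of 0.0696, on 188 to 375 counts a library. With the block the value was 0.52 and the adjusted p 0.414, and with the offsets they were 0.31 and 0.153.

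By p-value Snhg1 came after Malat1 and Snhg12 and before Kcnq1ot1. It measured 68.6, 59.2 and 62.4 CPM with vehicle and 72.0, 83.2 and 79.2 CPM with THC. The groups did not overlap, and the log2 fold change of 0.32 (SE 0.072) had an edgeR adjusted p of 0.0504. Snhg5 gave 58.1, 45.2 and 51.4 CPM with vehicle and 57.5, 72.9 and 65.5 CPM with THC, where the lowest THC library lay just under the highest vehicle library. Its log2 fold change was 0.36 (SE 0.11) with an edgeR adjusted p of 0.101. DESeq2 called 759 of all 13104 genes in ESCs. It placed Kcnq1ot1, Snhg1 and Snhg5 under the limit, at adjusted p-values of 0.0212, 0.00385 and 0.0162. By edgeR with the block the adjusted p was 0.414 for all 3. With the offsets Snhg1 was at 0.18 and Snhg5 at 0.24 on the log2 scale, with edgeR adjusted p-values of 0.248 and 0.346.

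The other 4 genes overlapped between the exposures. Gas5, whose RNA is known to accumulate in growth-arrested cells, measured 148, 159 and 149 CPM with vehicle and 166, 154 and 165 CPM with THC. On the log2 scale the difference was 0.10 (SE 0.045, edgeR adjusted p = 0.199), and with the offsets it was 0.014. Snhg6 had a log2 fold change of 0.24 (SE 0.11), Neat1 of 0.18 (SE 0.11) and Snhg8 of 0.10 (SE 0.10), with edgeR adjusted p-values of 0.195, 0.319 and 0.534.

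**Figure D2:**
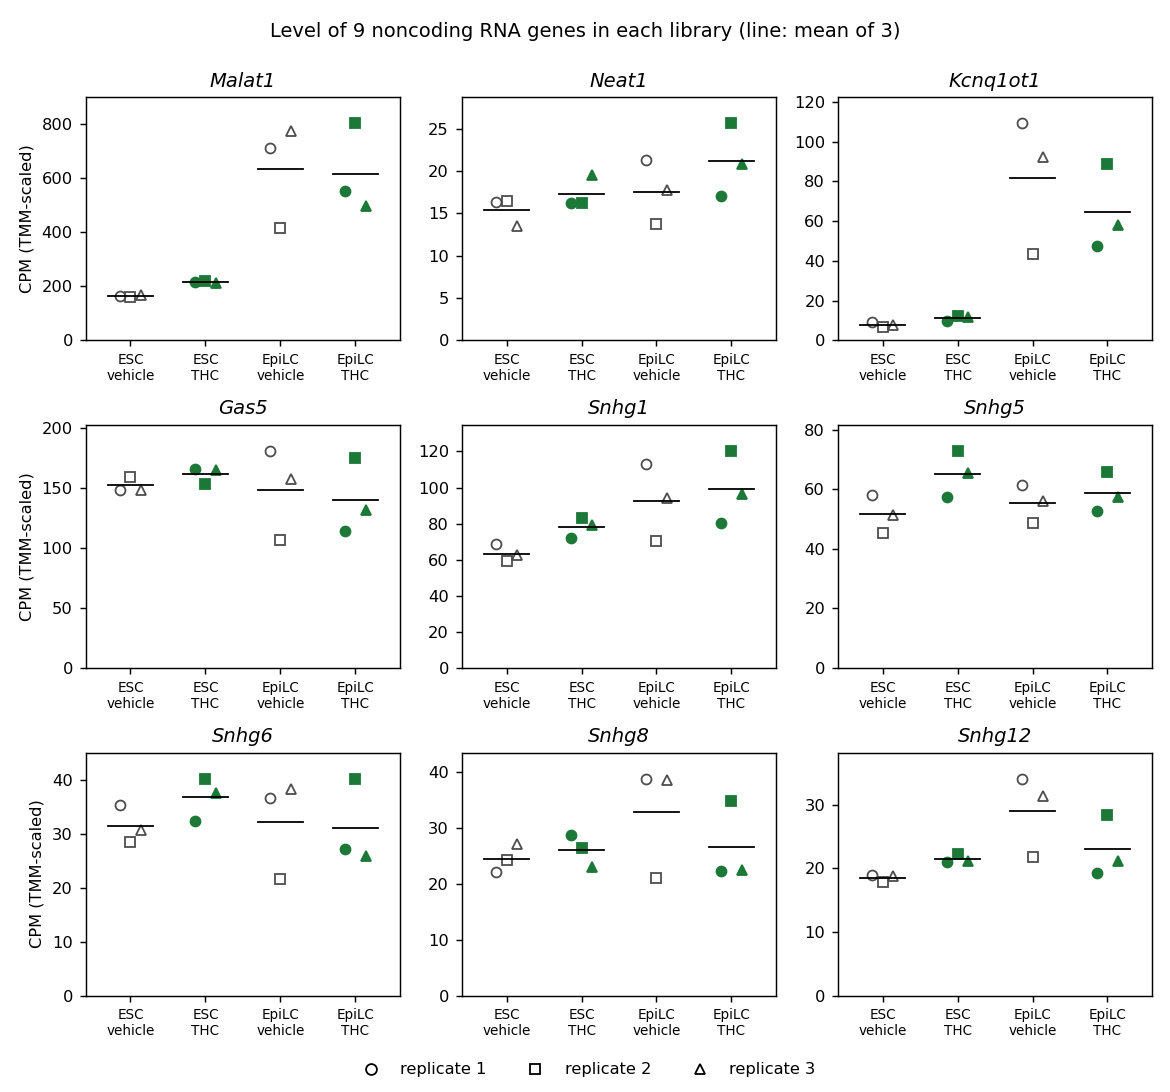
CPM of each gene in each of 12 libraries, with vehicle as open grey symbols, THC as filled green symbols, a shape for each replicate number and a line at the mean of 3. In ESCs the THC libraries of Malat1, Kcnq1ot1, Snhg1 and Snhg12 lie above the vehicle libraries, and in EpiLCs the libraries vehicle replicate 2 and THC replicate 1 are low and vehicle replicate 1 and THC replicate 2 are high across the genes.

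The values in ESCs ran with the features of the genes as follows. The 3 genes with a pyrimidine tract that opens with C within 5 bases of the start were Gas5, Snhg8 and Snhg12. Their log2 fold changes were 0.10, 0.10 and 0.23. The 4 genes with a window and no such tract, Snhg1, Snhg5, Malat1 and Kcnq1ot1, had higher values, at 0.32, 0.36, 0.42 and 0.52. This split was seen after the values were known and was not tested. It rests on the limit of 5 bases, since the Snhg5 window holds ctttt further downstream. It also rests on the rule of an opening C, since the Snhg1 window holds tttttcctt, which opens within 5 bases of the start. With the GC and length offsets the split did not hold, since Snhg12 was at 0.19 and Snhg1 at 0.18. The exonic GC contents of the first 3 genes were 43.6%, 47.0% and 47.5%, and those of the other 4 were lower, at 40.7%, 43.1%, 42.5% and 40.3%. With the GC and length offsets all 9 values became smaller and stayed above 0, with a median of 0.18, and none of the 9 passed.

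**Figure D3:**
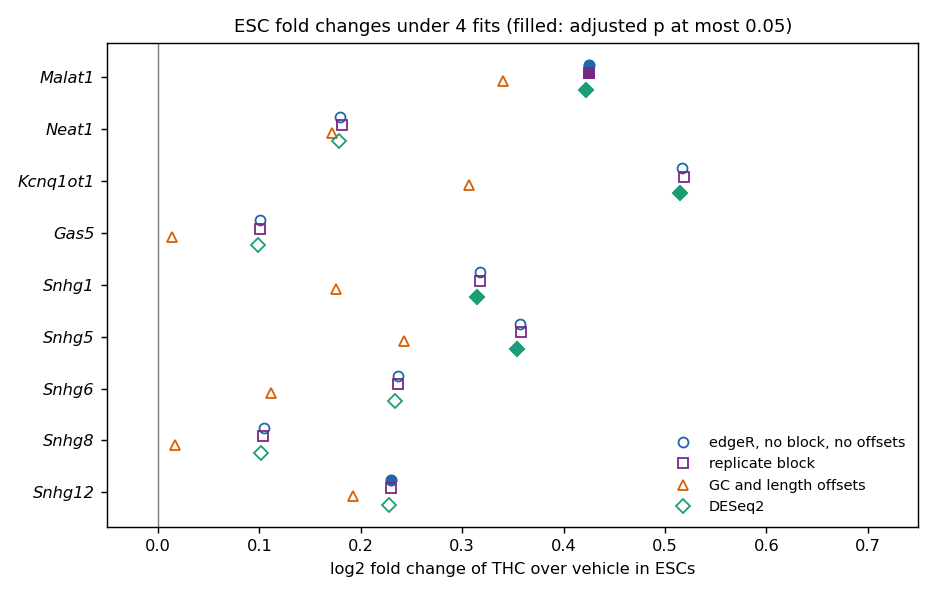
Log2 fold change of THC over vehicle in ESCs under 4 fits: edgeR with no block and no offsets (circles), with the replicate block (squares), with GC and length offsets (triangles), and DESeq2 (diamonds), with filled symbols for an adjusted p of at most 0.05. The triangles lie to the left of the other symbols for all 9 genes, and Malat1 has filled symbols in 3 of the 4 fits.

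In EpiLCs no shared direction was seen. Of the 9 genes, 3 had a positive and 6 a negative log2 fold change, with a median of -0.049. By edgeR 0 of the 9 genes were called (0.0% of 13717 genes tested), 0 had an unadjusted p under 0.05, and DESeq2 called 0 of the 9 and 87 of all genes. None of the 9 genes had exposure groups without overlap, against 21.8% of all genes.

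The spread between EpiLC libraries was wide. Malat1 ranged from 417 to 777 CPM with vehicle and from 497 to 803 CPM with THC, and its log2 fold change was -0.039 (SE 0.27, edgeR adjusted p = 0.961). Gas5 measured 181, 107 and 157 CPM with vehicle and 114, 175 and 132 CPM with THC, with a log2 fold change of -0.077 (SE 0.23). The same libraries were high or low for most of the genes. Vehicle replicate 1 and THC replicate 2 were among the 3 highest of the 6 EpiLC libraries for all 9 genes, vehicle replicate 2 and THC replicate 1 for none, and vehicle replicate 2 was the lowest for 8 of the 9.

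Snhg12 and Kcnq1ot1 had the lowest values in EpiLCs. Snhg12 measured 34.1, 21.7 and 31.4 CPM with vehicle and 19.3, 28.4 and 21.2 CPM with THC, which gave -0.34 on the log2 scale (SE 0.21, edgeR adjusted p = 0.489). Kcnq1ot1 gave -0.33 (SE 0.37), from 109, 43.7 and 92.1 CPM with vehicle and 47.3, 88.8 and 58.2 CPM with THC. Without vehicle replicate 2 it was -0.64, and without vehicle replicate 1 it was -0.069. With the GC and length offsets Kcnq1ot1 was at -0.61 and Snhg12 at -0.31, and Neat1 was at 0.12 in place of 0.27, none of them called. Snhg8 gave -0.30 (SE 0.28), Neat1 0.27 (SE 0.20), Snhg1 0.098 (SE 0.21), Snhg5 0.083 (SE 0.11) and Snhg6 -0.049 (SE 0.26), with edgeR adjusted p-values from 0.566 to 0.951.

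**Figure D4:**
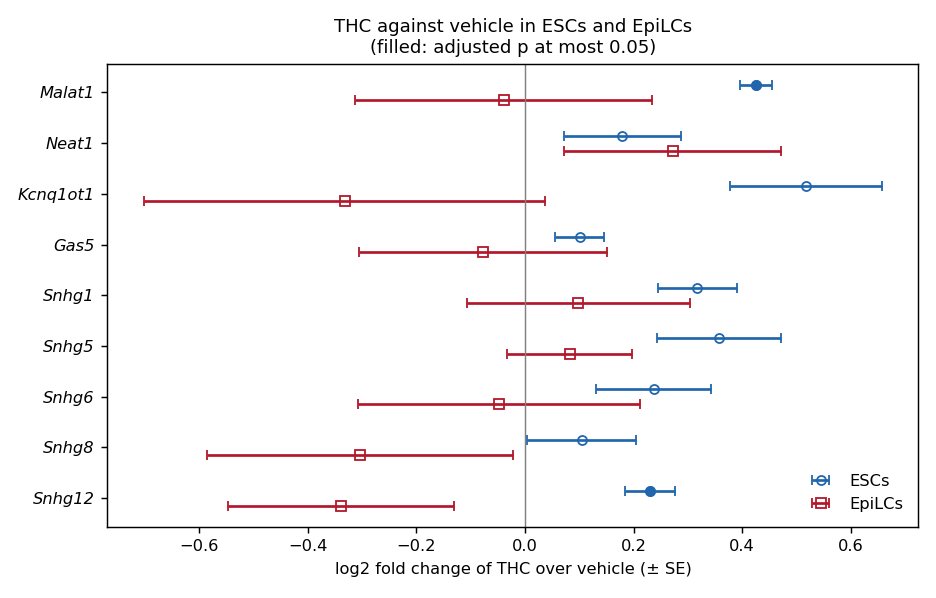
Log2 fold change of THC over vehicle with its SE in ESCs (blue circles) and EpiLCs (red squares), filled where the edgeR adjusted p was at most 0.05. In ESCs all 9 values lie above 0 and Malat1 and Snhg12 are filled; in EpiLCs the values lie from -0.34 to 0.27, with SEs of 0.11 to 0.37.

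The difference of the THC effects between the cell types was tested directly as an interaction over 12 libraries. For 8 of the 9 genes the effect in EpiLCs was below that in ESCs, with a median difference of -0.27 on the log2 scale. By edgeR 0 of the 9 genes passed, against 0.0322% of 12410 genes, and 1, Snhg12, had an unadjusted p under 0.05; DESeq2 also called 0. For Snhg12 the difference was -0.55 (SE 0.23, adjusted p = 0.315), for Kcnq1ot1 -0.83 (SE 0.45, adjusted p = 0.441) and for Malat1 -0.45 (SE 0.29, adjusted p = 0.531). The call of Malat1 in ESCs and its absence in EpiLCs therefore do not show that the effect differed between the cell types.

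Other genes of the same pathways were described by list, with edgeR calls in ESCs. Among all genes tested in ESCs, 3.37% were called higher and 6.91% in either direction. A single call in a short list is therefore not a result about that list. Of 10 further noncoding snoRNA host genes with a row, all 10 had a log2 fold change above 0, with a median of 0.25, and 1 rose, Dancr (0.67, SE 0.13, adjusted p = 0.0401). Of 32 protein-coding snoRNA host genes, which carry snoRNAs in the introns of messenger RNAs, 0 were called; 14 were above 0, and the median was -0.032. Taf1d, a factor of RNA polymerase I transcription, was the member of this list without overlap and with the largest value, 0.30 (adjusted p = 0.0572). Of 15 proteins that form or assemble snoRNA particles, 1 rose, Gar1 of the H/ACA particles (0.21, SE 0.040, adjusted p = 0.0376), and the median was 0.046.

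Partners of the nuclear RNAs had smaller values than Malat1. Of 14 nuclear speckle proteins 4 rose in ESCs and none fell, among them the splicing factors Srsf1 (0.28), Srsf3 (0.23) and Srsf2 (0.19), with adjusted p-values of 0.0420, 0.0271 and 0.0283. With the GC and length offsets the median of this list was 0.0094, from 0.11 without them. Of 9 paraspeckle proteins 1 rose, Tardbp, an RNA-binding protein (0.15, adjusted p = 0.0385). Of 14 nonsense-mediated decay factors 1 fell, Upf3a (-0.17, SE 0.031, adjusted p = 0.0352), and the median was 0.0011. Of 17 other long noncoding RNAs, Norad, a cytoplasmic RNA that binds Pumilio proteins, rose (0.18, adjusted p = 0.0304), Mirg, a microRNA host gene of the imprinted Dlk1 domain, fell (-0.67, adjusted p = 0.0383), and 15 were above 0. None of the genes of these lists was called with the replicate block, and none of those named here was called with the offsets.

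Of 7 genes of the Kcnq1ot1 imprinted domain with a row, 0 were called by edgeR in ESCs. Ascl2, an imprinted gene of the domain that encodes a transcription factor, measured 0.54 in ESCs as a log2 fold change (adjusted p = 0.175) at 0.977 ± 0.250 CPM with vehicle. In EpiLCs all 7 were below 0, with a median of -0.15, and 0 were called. The further noncoding host genes were split in EpiLCs, with 3 of 11 above 0 and a median of -0.096. In EpiLCs 30 of 32 protein-coding host genes and 13 of 15 snoRNA particle proteins were below 0, with medians of -0.12 and -0.17. Of all genes in EpiLCs, 50.7% were above 0, with a median of 0.0030. Nop56, Nop58 and Dkc1 are in both lists, and 0 of either list were called.

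The genes most like Malat1 and Gas5 were found by Pearson's correlation of log2 CPM over 12 libraries after the mean of each cell type was subtracted, as a description of libraries that are not independent. For Malat1 they were 2810408I11Rik, Rab9, Cbx1, 2700097O09Rik and Ccar1, with r from 0.975 to 0.983. For Gas5 they were Prpf38b, 9330185C12Rik, Wdr83os, Ift74 and Ppox, with r from 0.962 to 0.984. Among the other genes described here, r with Malat1 ran from 0.632 for Neat1 to 0.918 for Snhg6.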

How the data were processed

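The data are 12 RNA-seq libraries from ESCs and EpiLCs of the mouse, 3 biological replicates for each cell type and exposure. PGCLC libraries were not analysed here. The authors aligned reads with STAR, kept those with a single alignment, used HTSeq (union mode, strand ignored) to count them per gene, removed genes with low counts and adjusted the counts with ComBat-seq. The deposited tables hold these adjusted counts, one table a cell type. The batches are not given in the sources used here, nor is the kit of each library. Reads that fall on shared exonic bases are dropped in union mode, so host exons lose reads where they overlap an annotated snoRNA. Totals were 23427551 to 32096698 counts a library, and the 9 genes had 188 to 20504 counts. For Snhg12 in ESCs, on 489 to 672 counts, the SE was 0.046 by edgeR and 0.090 by DESeq2. How the spread between libraries compares with counting error was not tested for each gene.

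THC was compared with vehicle separately in ESCs and EpiLCs by edgeR 4.0.16 (TMM, quasi-likelihood test) in R 4.3.3, on genes with more than 10 counts in total, with Benjamini-Hochberg adjustment over all genes and a limit of 0.05. The SE is the size of the log2 fold change over the root of F. The interaction was fitted on 12 libraries. CPM were scaled by TMM over the genes of both tables, with a prior count of 2 for log2 values. Alternatives were RLE, filters, the replicate number as a block, offsets for GC content and length (natural splines, 5 degrees of freedom), both, DESeq2 1.42.0, a fit of 12 libraries and each library left out. The fits were also run on simulated counts drawn independently for each library. That run cannot test p-values for libraries that are not independent. Positions, lengths and GC content came from GENCODE on GRCm38, starts from RefSeq; the genome is called both mm10 and GRCm39 in the methods, so positions only describe the genes.

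The genes and lists were chosen with earlier results of these data known. From each list, up to 3 genes past the limit in ESCs or EpiLCs were named by size of change, otherwise the gene without overlap and with the largest change. Tables and figures used Python 3.11.15, pandas 2.3.3 and matplotlib 3.10.9.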

Additional observations from a re-analysis of the deposited data

How the results depend on the processing

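The replicate numbers tie the libraries, but in opposite directions: same-numbered vehicle and THC libraries correlated at -0.99 to -0.98 around their group means, and the others at 0.22 to 0.70. The batches are not given, so whether the replicate number was a batch in the authors' adjustment cannot be told and was not tested. The methods state no block, and the block was run as an alternative. Without the block, the fit treats these tied libraries as independent. For Malat1 in ESCs the SE was 0.029 without the block and 0.063 with it. With the number as a block, 5 of all genes and 1 of the 9 members, Malat1, were called in ESCs in place of 906 and 2, 0 and 0 in EpiLCs, and 0 and 0 for the interaction in place of 4 and 0. With GC and length offsets 2 of all genes and 0 of the 9 were called in ESCs and 16 genes for the interaction; with block and offsets together 3 genes and 0 of the 9 in ESCs and 0 for the interaction. DESeq2 called 759 genes and 4 of the 9 in ESCs, 87 genes in EpiLCs and 133 for the interaction. The fit of 12 libraries called 31 genes and 0 of the 9 in ESCs and 411 genes in EpiLCs. Without 1 library, 0 to 1 genes and 0 of the 9 were called in ESCs, 0 in EpiLCs and 0 for the interaction. The cause of these changes was not tested, except that fewer libraries enter the last. All 9 log2 fold changes in ESCs stayed above 0 under every alternative run.

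In EpiLCs, without 1 library, the log2 fold change ranged from -0.29 to 0.14 for Malat1, -0.28 to 0.085 for Gas5, -0.078 to 0.26 for Snhg1, -0.020 to 0.16 for Snhg5 and -0.29 to 0.10 for Snhg6. The interaction ranged from -0.050 to 0.27 for Neat1, where it was -0.040 with the offsets and also with the block added, and from -0.35 to 0.0063 for Gas5. The EpiLC minus ESC difference with vehicle ranged from -0.23 to 0.15 for Gas5 and -0.16 to 0.26 for Snhg6, and with THC from -0.21 to 0.11 for Snhg8 and -0.088 to 0.19 for Snhg12. RLE, CPM on total counts and the filters changed no call or direction of the 9 genes. With the longest transcript as length, 5 of the 9 levels per kilobase moved by more than an SD in ESCs and 4 in EpiLCs.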
